A study of Mus musculus with 2 samples.

Results

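The 8 genes described here store, import, export and release iron, and were followed in every cell class of the mouse brain immune compartment: Fth1 and Ftl1, which encode the ferritin heavy and light chains; Slc40a1, which encodes the iron exporter ferroportin; Cp, which encodes the copper ferroxidase ceruloplasmin; Tfrc, which encodes the transferrin receptor; Slc11a2 and Slc11a1, which encode the divalent metal transporters DMT1 and NRAMP1; and Hmox1, which encodes heme oxygenase 1. They were taken by symbol, 8 of the 32285 genes counted, and all 8 were detected. Single cells came from the brains of 4 control mice (Arpc4 fl/fl, without Cre) and 4 Arpc4ΔCx3cr1 mice (Tg(Cx3cr1-Cre) Arpc4 fl/fl, hereafter knockout), 12 weeks old, the controls also carrying the floxed alleles. ARPC4 is a subunit of the Arp2/3 complex, which nucleates branched actin filaments. The Cx3cr1-Cre transgene is active in brain myeloid cells from the onset of development, and CD45-positive cells of the 8 mice were tagged with 1 oligonucleotide label per mouse and sequenced as 1 pool.

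The tables held 19864 barcodes, of which 19863 passed the filters, with 5251527 to 12878691 unique molecular identifiers (UMIs) on genes per mouse and 0 barcodes shared between mice. Clusters were named from marker genes: 17035 cells were microglia-like (7797 control, 9238 knockout), 414 were CAM-like (CNS-associated macrophages, 289 and 125), 346 were monocyte-like (113 and 233) and 310 were T cell-like (134 and 176). Knockout mouse 1 stood apart: it alone expressed Xist (1444 CPM in microglia-like cells, CPM being the UMIs of a gene relative to all UMIs of the class in a mouse, against 3.54 to 13.8 in the other 7 mice), and its microglia-like cells held hemoglobin RNA, with erythroid markers summing to 1569 CPM against 13.03 to 15.5 in the other knockout mice. The methods state that a knockout mouse was female by mistake and that the study set it aside. The labels do not say which mouse it was, and Xist points to knockout mouse 1. All 8 mice were used as labelled, and results are also given without knockout mouse 1. In microglia-like cells the summed level of the 11 microglia markers was 23459 to 24170 CPM in control and 10310 to 14187 CPM in knockout mice. All 11 were lower in knockout, and the 11 CAM markers summed to 163 to 181 CPM against 71.0 to 160.1 CPM. Most control microglia-like cells lay in clusters led by Csmd3, Ecscr or Crybb1 and most knockout cells in clusters led by Ctnna3, Cst7, Xist or Ms4a7 with hemoglobin genes, so the 2 genotypes were compared across different clusters of 1 class. The cluster led by hemoglobin genes and Ms4a7 (1290 cells, 97.4% of them knockout) goes only in part with the name microglia-like: 3 of the 11 microglia markers were raised in it, its 10 leading genes held 4 hemoglobin genes and 0 microglia markers, and 1283 of its cells joined the CAM-like cluster at a coarser clustering. Its hemoglobin genes are no trait of all mice, since over all microglia-like cells the erythroid markers were high in knockout mouse 1 only. They summed to 13.03 to 15.5 CPM in knockout mice 2 to 4 and 13.97 to 18.98 CPM in controls. This cluster was kept, while low-UMI clusters with 11 and 9 raised microglia markers were left unnamed for their depth, so the values of the 8 genes are also given without it.

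Iron is needed for heme and iron-sulfur clusters but is toxic when free, so cells balance uptake, storage and release. Iron bound to transferrin enters through the transferrin receptor and leaves the endosome through DMT1, the excess is held inside the ferritin shell of heavy and light chains, and ferroportin, helped by a ferroxidase such as ceruloplasmin, carries iron out. Phagocytes also gain iron from engulfed heme, which heme oxygenase opens, and NRAMP1 moves metal out of the phagosome. Part of this balance is set after transcription: iron regulatory proteins bind a hairpin, the iron-responsive element, at the start of ferritin and ferroportin mRNAs, where they block translation, and at the end of the transferrin receptor mRNA, where they protect it from decay. RNA levels as measured here therefore do not give protein levels.

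The hairpin sequences are shown because the same regulator acts differently on a hairpin at the start and at the end of an mRNA. Annotated transcripts (GENCODE vM21, mouse build GRCm38/mm10) were searched on their own strand for a bulged C, a 5-base stem, the loop CAGTGN and the 5 bases that pair back with the stem, G-T pairs allowed. Each line gives a 30-base window, 5′ to 3′, with the 6-base loop in capitals. The windows lie in exon 1, in the 5′ untranslated region, of Fth1 (chr19:9982731-9982760, plus strand), Ftl1 (chr7:45459779-45459808, minus strand) and Slc40a1 (chr1:45925465-45925494, minus strand). The other 4 lie in exon 19, in the 3′ untranslated region, of Tfrc on the plus strand (chr16:32631218-32631247, chr16:32631597-32631626, chr16:32631662-32631691 and chr16:32631709-32631738).
Fth1, 5′ untranslated region: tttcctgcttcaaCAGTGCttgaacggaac
Ftl1, 5′ untranslated region: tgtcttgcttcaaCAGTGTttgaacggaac
Slc40a1, 5′ untranslated region: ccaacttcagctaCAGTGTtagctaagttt
Tfrc, 3′ untranslated region, at 32631218: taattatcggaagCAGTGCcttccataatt
Tfrc, 3′ untranslated region, at 32631597: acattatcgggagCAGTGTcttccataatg
Tfrc, 3′ untranslated region, at 32631662: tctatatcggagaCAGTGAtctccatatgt
Tfrc, 3′ untranslated region, at 32631709: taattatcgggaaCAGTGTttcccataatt
Of 21901 genes with a coding transcript, 31 (0.142%) held these letters in a 5′ untranslated region and 129 (0.589%) in a 3′ untranslated region. In this strict form the letters were not found in transcripts of Cp, Hmox1, Slc11a1 or Slc11a2. A hairpin with another loop or an imperfect stem would be missed, so these genes are not shown to lack one.

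The targeted gene was read first. In microglia-like cells Arpc4 (chr6:113378115-113390448, plus strand) had 237, 216, 225 and 222 CPM in control mice 1 to 4 and 153, 148, 143 and 138 CPM in knockout mice 1 to 4, a log2 change of -0.63 (SE 0.05, adjusted p = 5.75e-06, edgeR quasi-likelihood test with Benjamini-Hochberg adjustment over all genes tested, used for every adjusted p here). The genotypes did not overlap. In CAM-like cells Arpc4 was at 224 ± 29.0 CPM in control and 269 ± 35.9 CPM in knockout mice (SD, n = 4 each; log2 change 0.27, SE 0.21, adjusted p = 0.693), and in monocyte-like cells the log2 change was -0.04 (SE 0.19, adjusted p = 0.966). In T cell-like cells it was at 186 ± 22.3 CPM in control and 150 ± 39.9 CPM in knockout mice, scaled by total UMIs, with overlap. Where the floxed exons lie relative to the counted 3′ ends is not given in the sources used here, so the level bears on the deletion only in part. At the protein level, the paper reports by flow cytometry that knockout microglia had largely lost ARPC4 and ARPC2.

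In microglia-like cells all 8 iron genes differed between the genotypes, 7 higher and Slc40a1 lower in knockout, and for each of them the 4 knockout mice did not overlap the 4 controls. This is to be read against 46.1% of all 12728 tested genes called, 22.9% higher and 23.2% lower, and 44.2% without overlap. The median log2 change of the 8 genes was 0.72 and that of all tested genes was -0.01. CPM here take the UMIs on tested genes as the total, scaled with the trimmed mean of M-values (TMM). Beside this, markers of other cell types moved in the same cells: 10 genes of neurons, glia and vessels summed to 32.8 to 41.9 CPM in control and 101 to 164 CPM in knockout mice (4 of 6 tested higher, Flt1 the highest, Cldn5 at 0), 7 B cell markers to 223 to 244 and 82.3 to 148 CPM (Ighm the highest), 7 T cell markers to 63.5 to 76.1 and 10.4 to 42.8 CPM (Il7r the highest), 6 dendritic cell markers to 5.35 to 7.64 and 16.4 to 21.2 CPM, and 7 granulocyte markers to 375 to 393 and 441 to 635 CPM (Csf3r the highest). Monocyte markers summed to 10.1 to 15.9 and 11.6 to 13.3 CPM. The part of these cells in the values of the iron genes was not tested. Replicates are separate littermate mice prepared on 1 day, so the spread between them holds both animal and handling differences.

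The storage genes rose. Fth1 (ENSMUSG00000024661, chr19:9980598-9985098, plus strand), the ferritin subunit that oxidizes iron, had 3026, 2874, 2777 and 2665 CPM in control mice and 11932, 6641, 8117 and 8028 CPM in knockout mice. Every knockout mouse lay far above every control, with knockout mouse 1 the highest. The means were 2835 ± 153 and 8679 ± 2271 CPM (SD, n = 4 each), a 3.06-fold difference (log2 change 1.61, SE 0.15, adjusted p = 1.01e-05).

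Ftl1 (ENSMUSG00000050708, chr7:45457944-45459884, minus strand), the subunit that helps the iron core form, had 1515, 1523, 1459 and 1483 CPM in control mice and 2378, 2295, 2690 and 2645 CPM in knockout mice. Its knockout values were close together, and mouse 1 was not the highest. The difference was 1.67-fold (log2 change 0.74, SE 0.06, adjusted p = 4.48e-06). The Ftl1 locus overlaps Gm22133 on the same strand and Gm10252 on the other, and ferritin genes have near-identical processed copies, so some reads may be split between them. 1 such copy counted separately, Ftl1-ps1, went from 12.1 ± 1.18 to 22.7 ± 3.04 CPM (log2 change 0.92, SE 0.12, adjusted p = 9.39e-05).

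The rise of Fth1 was larger than that of Ftl1. In microglia-like cells the ratio of Fth1 to Ftl1 UMIs was 2.00, 1.89, 1.90 and 1.80 in control mice and 5.02, 2.89, 3.02 and 3.03 in knockout mice, so the genotypes did not overlap and knockout mouse 1 was far above the rest. UMIs count 3′ ends and the ratio is not per length, so it is used only between genotypes. The log2 difference was 0.84 (two-sided exact permutation test, p = 0.0286, the smallest that 4 against 4 allows, 0.0381 adjusted over 4 cell classes). In T cell-like cells the ratio went from 2.36 ± 0.0668 to 3.15 ± 0.524 (log2 difference 0.40, exact permutation p = 0.0286) and in monocyte-like cells from 1.69 ± 0.228 to 1.21 ± 0.226 (log2 difference -0.49, exact permutation p = 0.0286). In CAM-like cells it was 1.64 ± 0.0520 and 1.82 ± 0.339 (exact permutation p = 0.371). With any 1 mouse left out, no p under 0.0571 can be reached.

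The exporter fell. Slc40a1 (ENSMUSG00000025993, chr1:45908068-45926523, minus strand) had 123, 116, 127 and 120.1 CPM in control mice and 9.14, 40.2, 32.1 and 22.2 CPM in knockout mice, from 530 to 1188 UMIs per control mouse and 94 to 395 per knockout mouse. The controls were within a narrow range, and the highest knockout mouse stayed far under the lowest control. The means were 122 ± 4.62 and 25.9 ± 13.4 CPM (SD, n = 4 each), 4.70-fold lower in knockout (log2 change -2.23, SE 0.31, adjusted p = 0.000151). Knockout mouse 1 was the lowest, and without it the log2 change was -1.95. At these settings it was the largest log2 change, in absolute size, of the 8 genes.

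Cp (ENSMUSG00000003617, chr3:19957054-20009145, plus strand), whose product oxidizes the iron that ferroportin releases, went the other way from the exporter. It had 30.03, 26.6, 22.0 and 28.3 CPM in control mice and 67.6, 87.4, 46.2 and 73.1 CPM in knockout mice, a 2.59-fold difference (log2 change 1.37, SE 0.17, adjusted p = 9.19e-05). Knockout mouse 3 was the lowest of its group and still above every control. The locus overlaps Hps3 on the other strand.

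The uptake genes rose less. Tfrc (ENSMUSG00000022797, chr16:32608920-32632794, plus strand) was the lowest of the 8 in UMIs, with 7.22, 5.56, 5.90 and 6.36 CPM in control mice and 10.0, 8.85, 7.84 and 12.5 CPM in knockout mice (log2 change 0.67, SE 0.16, adjusted p = 0.00669). The gap between the highest control and the lowest knockout mouse was narrow. Slc11a2 (ENSMUSG00000023030, chr15:100387898-100425072, minus strand, overlapping Gm5475 on the other strand) had 11.4, 15.9, 15.8 and 14.9 CPM in control mice and 17.2, 22.2, 23.8 and 25.7 CPM in knockout mice (log2 change 0.59, SE 0.14, adjusted p = 0.00477). Both genotypes were again separate, with knockout mouse 1 the closest to the controls.

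The phagosomal transporter Slc11a1 (ENSMUSG00000026177, chr1:74375195-74386062, plus strand) had 101, 106, 125 and 121 CPM in control mice and 184, 173, 184 and 199 CPM in knockout mice, a 1.63-fold difference (log2 change 0.70, SE 0.08, adjusted p = 3.21e-05). Hmox1 (ENSMUSG00000005413, chr8:75093621-75100589, plus strand), the inducible enzyme that frees iron from heme, had 18.4, 16.96, 17.2 and 18.6 CPM in control mice and 58.9, 36.2, 51.9 and 41.0 CPM in knockout mice, a 2.65-fold difference (log2 change 1.41, SE 0.14, adjusted p = 1.90e-05). Controls were nearly equal to each other for Hmox1, while knockout mice were spread widely.

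**Figure D1:**
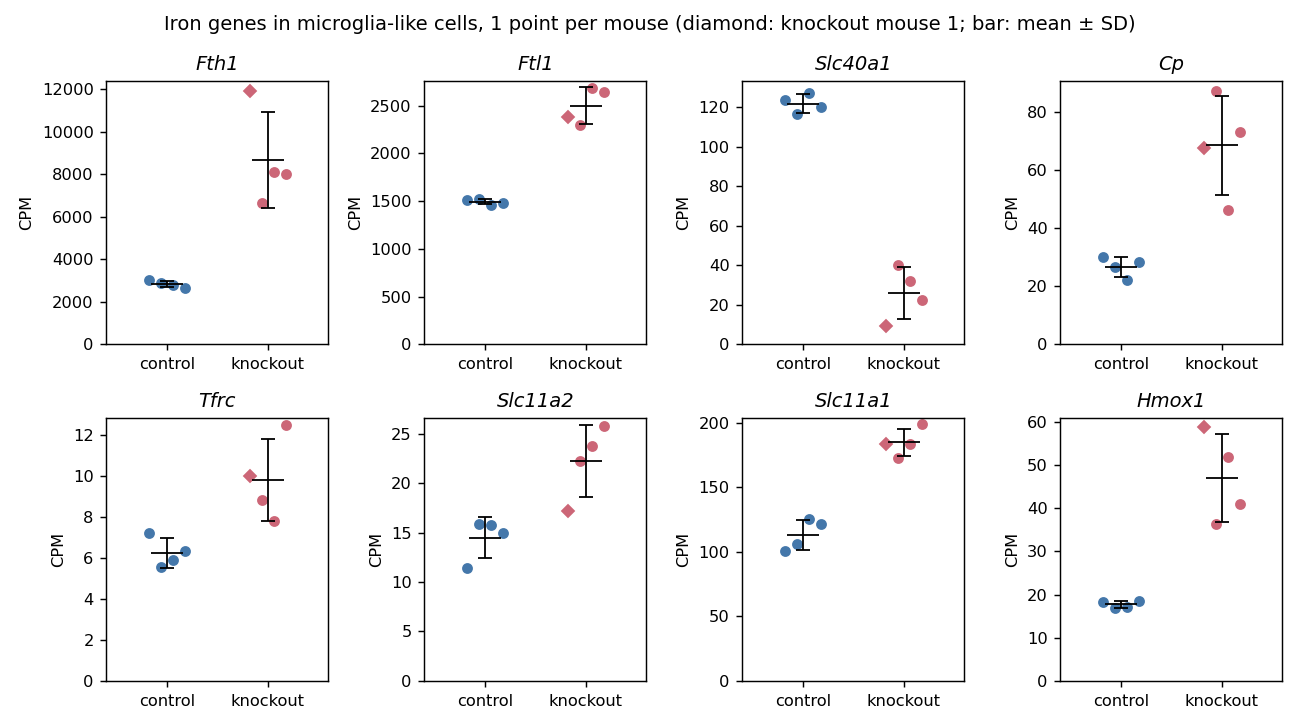
CPM (TMM-scaled, linear axes from 0) of the 8 iron genes in microglia-like cells, 1 point per mouse for 4 control and 4 knockout mice, with the mean and SD as a bar and knockout mouse 1 as a diamond. The genotypes are separate in all 8 panels, with Slc40a1 the 1 gene lower in knockout and knockout mouse 1 at the extreme for Fth1, Slc40a1 and Hmox1.

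Without the microglial cluster of the highest Ms4a7 level, which held 1240 of those 1290 cells, all 8 genes were still called: the log2 changes were 1.54 for Fth1, 0.69 for Ftl1, -2.20 for Slc40a1, 1.30 for Cp, 0.72 for Tfrc, 0.60 for Slc11a2, 0.72 for Slc11a1 and 1.38 for Hmox1. Of all 12616 genes tested without this cluster, 5720 were called. Leaving out this cluster was chosen after the data were seen. Leaving out any 1 mouse kept all 8 calls and their directions, where 5196 to 6374 of 12861 to 12966 tested genes were called. Without knockout mouse 1, the mouse with the hemoglobin RNA and Xist, the log2 changes were 1.43 for Fth1, 0.77 for Ftl1, -1.95 for Slc40a1, 1.38 for Cp, 0.67 for Tfrc, 0.69 for Slc11a2, 0.71 for Slc11a1 and 1.29 for Hmox1. Free RNA in the droplets was shared by all mice, since they were sequenced as 1 pool: droplets with at most 100 UMIs held Fth1 at 10169, Ftl1 at 3014, Slc11a1 at 155, Slc40a1 at 54.0, Hmox1 at 42.2, Cp at 36.5, Slc11a2 at 20.4 and Tfrc at 7.89 CPM of their total. Of the 8 genes, 7 were higher in free RNA than in control microglia-like cells scaled by their total, and Slc40a1 was lower (54.0 against 126 CPM). With 25% of each cell sum removed as free RNA, the log2 changes grew to 4.03 for Fth1, 2.29 for Hmox1, 1.21 for Ftl1 and -3.01 for Slc40a1. Control microglia-like cells held Fth1 at 2936 CPM of their total, so this removal takes most of their Fth1. The 4.03 therefore rests on a small remainder and is not read as a size of change.

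The share of single cells with a UMI was also compared, after each cell was thinned to 2000 UMIs. Slc40a1 was seen in 21.3 ± 1.21% of control and 4.28 ± 2.01% of knockout microglia-like cells, Hmox1 in 4.04 ± 0.167% and 8.36 ± 1.99%, Cp in 5.23 ± 0.578% and 10.9 ± 2.86%, and Slc11a1 in 21.0 ± 2.35% and 29.5 ± 1.54% (mean and SD over 4 mice each). Fth1 was in 98.1 ± 0.551% of control and 99.9 ± 0.0635% of knockout cells, and Ftl1 in 91.1 ± 0.961% and 95.5 ± 0.936%. For these 6 of the 8 genes the genotypes did not overlap, against 40.6% of all 12728 tested genes (two-sided exact permutation p = 0.0286 for each, not adjusted for the 8 tests). For Tfrc (1.35 ± 0.349% and 1.70 ± 0.232%, exact permutation p = 0.171) and Slc11a2 (3.13 ± 0.434% and 3.78 ± 0.844%, exact permutation p = 0.229) no difference was detectable at this depth.

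Depth moved these shares. Unthinned, with median UMI counts per cell of 3835 in control and 4283 in knockout, all 8 genes were separate, against 39.9% of tested genes, with Slc40a1 at 37.1 and 9.44%, Hmox1 at 7.16 and 17.8%, Cp at 9.81 and 19.9%, and Tfrc at 2.45 and 4.10% of cells. T cell-like cells are set beside these at medians of 4981 and 4057 UMIs. They are no clean background, since they held microglia markers too, at levels given below: thinned, they had Hmox1 in 3.06 ± 4.496% of control and 2.64 ± 2.61% of knockout cells, Cp in 3.08 ± 3.11% and 3.04 ± 1.05%, and Slc40a1 in 6.35 ± 4.84% of control cells. Unthinned, Slc40a1 was in 22.4 ± 4.63% of control and 1.06 ± 2.13% of knockout T cell-like cells. The thinned shares of control microglia-like cells with Hmox1, Cp, Tfrc or Slc11a2 were within the range of the control T cell-like shares. That range over mice was 0 to 9.52% for Hmox1 and Slc11a2, 0 to 7.41% for Cp and 0 to 2.22% for Tfrc. It rests on 21 to 45 thinned cells per mouse, which also held microglia markers, so it cannot tell expression from background. These control shares are therefore not read as expression. Thinning left out 288 control and 329 knockout microglia-like cells under 2000 UMIs.

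In CAM-like cells these changes were not detected. Of the 6 iron genes that could be tested there, 0 were called by edgeR, where 1.02% of 3419 genes were called (0 of the 6 also at an unadjusted p under 0.05, and 0 by DESeq2). Slc40a1 had 95.7, 82.4, 81.2 and 66.4 CPM in control mice and 16.95, 287, 54.8 and 187 CPM in knockout mice, so 2 knockout mice lay above and 2 below every control (log2 change 0.63, SE 0.44, adjusted p = 0.646). These values came from 45, 22, 31 and 27 CAM-like cells and 2 to 24 UMIs per knockout mouse, and knockout mouse 1, the lowest here as in microglia-like cells, had 2 UMIs. Fth1 had 10945, 9338, 9282 and 9921 CPM in control and 16733, 8859, 11454 and 10859 CPM in knockout mice, which overlapped (log2 change 0.28, SE 0.21, adjusted p = 0.664). Hmox1 had a log2 change of 0.62 (SE 0.35, adjusted p = 0.552), Ftl1 0.12 (SE 0.19), Slc11a1 0.06 (SE 0.27) and Cp -0.01 (SE 0.32). Tfrc and Slc11a2 were too low to test, at 22.9 ± 12.1 and 18.3 ± 13.3 CPM for Tfrc and 19.1 ± 8.14 and 16.1 ± 11.2 CPM for Slc11a2 in control and knockout.

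The difference between the 2 classes was tested directly, as the change in CAM-like minus the change in microglia-like cells. It was called for 4 of 8 iron genes, against 6.67% of 11109 genes: Slc40a1 by 2.75 on the log2 scale (SE 0.34, adjusted p = 5.31e-12), Fth1 by -1.47 (SE 0.22, adjusted p = 1.60e-08), Cp by -1.57 (SE 0.23, adjusted p = 1.33e-08) and Ftl1 by -0.77 (SE 0.21, adjusted p = 0.00979). The first 3 held with any mouse left out. The call for Ftl1 was lost without control mouse 1, 2 or 4 or knockout mouse 2 (adjusted p = 0.0685, 0.0561, 0.0944 and 0.0648). Hmox1 (-0.95, adjusted p = 0.0647), Slc11a1 (-0.77, adjusted p = 0.0802), Tfrc (-1.08, adjusted p = 0.529) and Slc11a2 (-0.87, adjusted p = 0.614) were not called, although Hmox1 was without knockout mouse 3 (-1.19, adjusted p = 0.0269) and Slc11a1 without knockout mouse 1 (-1.08, adjusted p = 0.0121). At a clustering resolution of 0.4, where the CAM-like cluster was wider, Hmox1 (-1.55, adjusted p = 1.21e-06) and Tfrc (-2.20, adjusted p = 0.00117) were also called.

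The CAM-like result rests on where that cluster ends. At a clustering resolution of 0.4 the cluster named CAM-like took in 1763 cells, most of them knockout cells with Ms4a7 from the microglia-like class, and 3 iron genes were then called lower in knockout, against 7.09% of 7644 genes called lower: Slc40a1 (log2 change -1.33), Cp (-0.98) and Ftl1 (-0.60). In the CAM-like cells as used above, the 11 CAM markers summed to 8024 to 9570 CPM in control and 6705 to 17075 CPM in knockout mice, and the 11 microglia markers to 8221 to 10714 and 5222 to 7952 CPM, 4 of the 10 tested being lower in knockout. Their part in the CAM-like values was not tested.

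In monocyte-like cells 0 of 4 tested iron genes were called by edgeR, against 7.62% of 3071 genes (0 by DESeq2, and 1 of the 4, Slc11a1, at an unadjusted p under 0.05). Fth1 had 10398, 7199, 5771 and 5665 CPM in control mice and 6651, 5830, 6527 and 4713 CPM in knockout mice, which overlapped (log2 change -0.29, SE 0.18, adjusted p = 0.409). Slc11a1 was at 56.8 ± 38.7 CPM in control and 114 ± 17.7 CPM in knockout (log2 change 0.93, SE 0.38, adjusted p = 0.189), Hmox1 at 61.7 ± 61.9 and 93.8 ± 52.5 CPM (adjusted p = 0.549) and Ftl1 at 4326 ± 1349 and 4965 ± 618 CPM (adjusted p = 0.597). Beside these values, markers of other cells differed in the monocyte-like class: 6 dendritic cell markers summed to 1051 to 1864 CPM in control and 161 to 680.4 CPM in knockout mice (Cd209a the highest), 11 CAM markers to 983 to 1554 and 98.96 to 258 CPM (Mgl2 the highest, Cd209g and Lyve1 at 0) and 7 granulocyte markers to 83.4 to 152 and 228 to 643 CPM (S100a8 the highest). Monocyte markers themselves summed to 2361 to 3947 and 1952 to 5240 CPM. Their part in the monocyte-like values was not tested. Slc40a1 had few UMIs in these cells, with 5 UMIs over 113 control and 3 over 233 knockout cells.

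In T cell-like cells 1 of 3 tested iron genes was called, against 3.95% of 4198 genes (1.67% called higher). Fth1 had 3591, 2654, 2928 and 2480 CPM in control mice and 6359, 4672, 4512 and 4737 CPM in knockout mice, without overlap, as for 8.34% of tested genes (log2 change 0.80, SE 0.12, adjusted p = 0.000151). Knockout mouse 1 was again the highest, and without it the log2 change was 0.68. The change differed from that in microglia-like cells by -0.76 on the log2 scale (SE 0.11, adjusted p = 4.09e-08). Ftl1 was at 1241 ± 243 and 1612 ± 110 CPM (log2 change 0.38, adjusted p = 0.118), and was called without control mouse 1 (0.51, adjusted p = 0.0213). Slc40a1 was too low to test, with 43 UMIs over 134 control and 4 over 176 knockout cells, all 4 of them in knockout mouse 4. Beside these values, the 11 microglia markers summed to 8745 to 10124 CPM in the T cell-like cells of control mice and 3834 to 6337 CPM in those of knockout mice, 9 of 11 being lower in knockout. The CAM markers summed to 116 to 2044 and 24.6 to 62.0 CPM, with Cd209f, Cd209g and Lyve1 at 0. The part of microglial RNA in the T cell-like values was not tested.

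**Figure D2:**
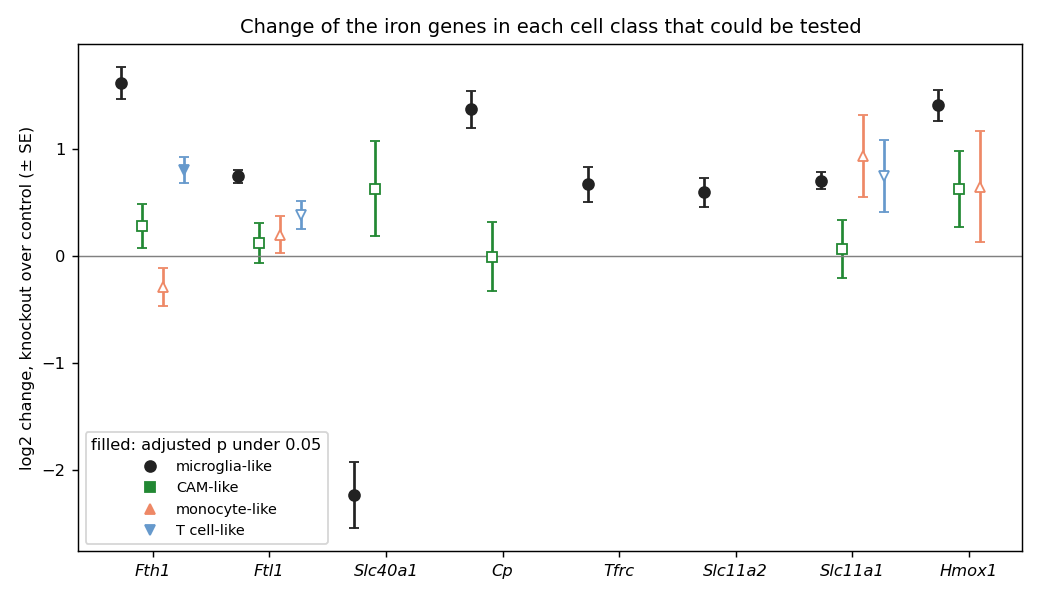
Log2 change, knockout over control, with its SE for each iron gene in the 4 cell classes, drawn only where the gene could be tested, and filled where the adjusted p was under 0.05. All 8 microglia-like points are filled, 1 T cell-like point (Fth1) is filled, and no CAM-like or monocyte-like point is filled.

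The iron genes differed in level between the classes. The levels that follow are scaled by the total UMIs of the class in each mouse, as means ± SD over mice. Control Fth1 was highest in CAM-like cells (8490 ± 620 CPM), followed by monocyte-like (5912 ± 1742), microglia-like (2936 ± 133) and T cell-like cells (2597 ± 398). CAM-like and monocyte-like cells overlapped, as did microglia-like and T cell-like cells, while both microglia-like and T cell-like values lay under every monocyte-like value. In knockout mice microglia-like cells moved to second place, at 8342 ± 2141 CPM, with a range that overlapped that of CAM-like cells (10022 ± 2197), and monocyte-like cells were at 5443 ± 837 CPM. Ftl1 had the same order in controls, 5186 ± 239 in CAM-like, 3527 ± 1075 in monocyte-like, 1548 ± 30.7 in microglia-like and 1106 ± 201 CPM in T cell-like cells. In knockout it kept that order, with 5507 ± 614, 4554 ± 559, 2406 ± 164 and 1381 ± 109 CPM.

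For Slc40a1 the class with the highest mean differed between the genotypes. In controls it was highest in microglia-like cells (126 ± 4.29 CPM), above all CAM-like values (70.0 ± 9.73), with T cell-like cells at 53.8 ± 19.0 and monocyte-like cells at 5.41 ± 8.34 CPM. In knockout, CAM-like cells came first with a wide spread (120 ± 112 CPM, from 13.3 to 257), and microglia-like cells were at 24.99 ± 13.1 CPM, ranges that overlapped. Low-UMI clusters that were left unnamed, 995 control and 509 knockout cells in which 11 and 9 of the microglia markers were raised, had Slc40a1 at 124 ± 31.1 and 24.6 ± 6.27 CPM.

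Cp was highest in CAM-like cells. Control CAM-like cells had 236 ± 17.7 CPM, above every microglia-like value (27.7 ± 3.55), with T cell-like cells at 11.4 ± 4.71 and monocyte-like cells at 9.44 ± 6.04 CPM. Knockout CAM-like cells ranged from 52.4 to 389 CPM and overlapped microglia-like cells (66.1 ± 17.2). Hmox1 was highest in control CAM-like cells (69.0 ± 15.0 CPM), then monocyte-like cells (50.7 ± 51.4), which overlapped both CAM-like and microglia-like cells (18.4 ± 0.891). Slc11a1 was level between control microglia-like (117 ± 12.8) and CAM-like cells (113 ± 17.1), and in knockout microglia-like cells (178 ± 8.89 CPM) all mice lay above all CAM-like values (112 ± 40.7).

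Tfrc, which dividing cells need, was highest in controls in the B cell-like cells of the 2 mice with enough of them (50.1 ± 5.14 CPM, from 4 UMIs), then in the cluster led by Elane, Prtn3 and Mpo (31.8 ± 17.8, 9 UMIs, 2 mice) and in CAM-like cells (19.7 ± 10.2), with microglia-like cells at 6.48 ± 0.707 CPM. Slc11a2 did not separate control CAM-like (16.5 ± 7.20) from microglia-like cells (15.0 ± 2.27 CPM), and in knockout the order of the means was the other way (13.4 ± 9.14 and 21.4 ± 3.47 CPM), again with overlap. Both genes had too few UMIs outside microglia-like cells, 22 or fewer per class and genotype among CAM-like, monocyte-like and T cell-like cells, to order those classes.

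**Figure D3:**
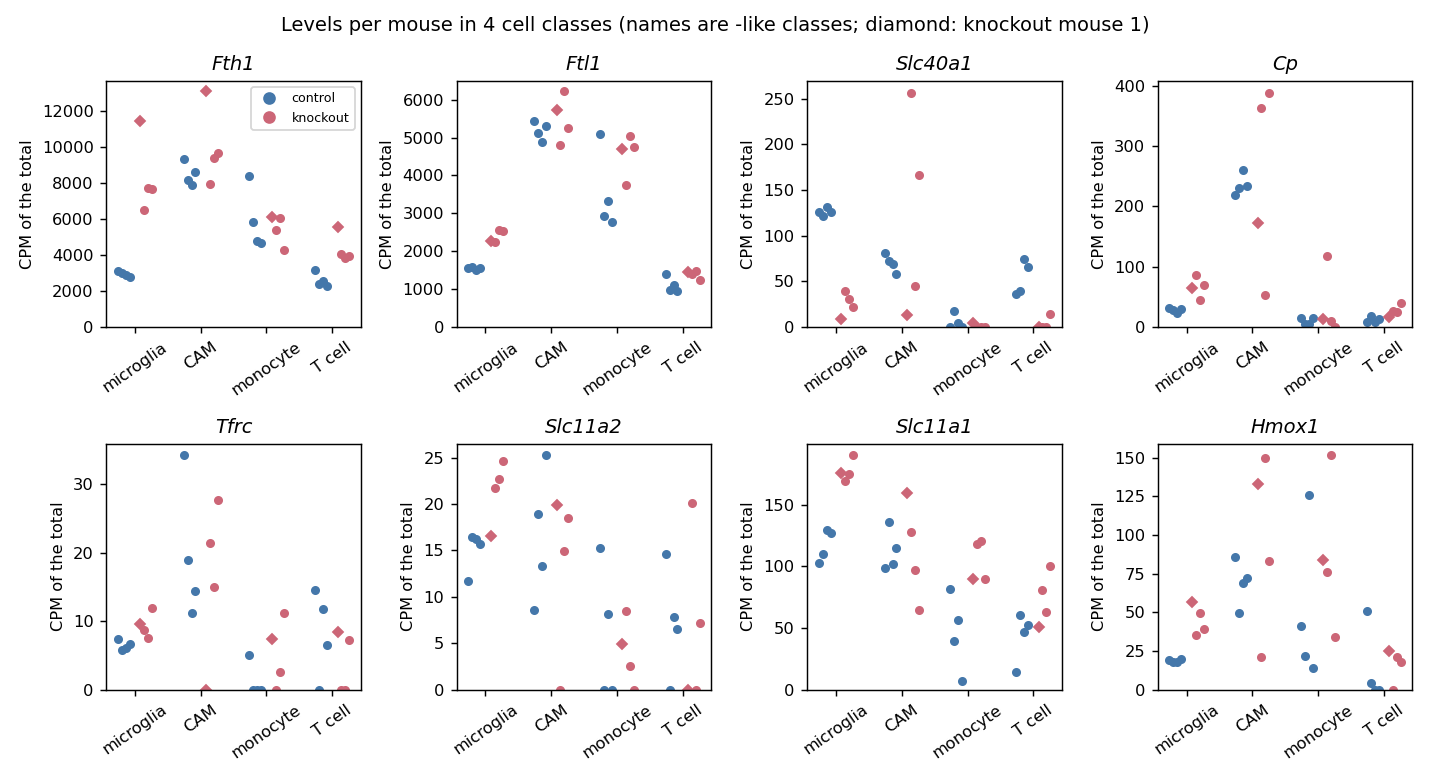
CPM of the total UMIs (linear axes from 0) of the 8 iron genes in microglia-like, CAM-like, monocyte-like and T cell-like cells, 1 point per mouse, control and knockout side by side, with knockout mouse 1 as a diamond. Fth1, Ftl1, Cp and Hmox1 are highest in CAM-like cells in controls, Slc40a1 is highest in control microglia-like cells, and the knockout CAM-like points spread widely.

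Within the microglia-like class the iron genes differed between clusters, which were made with the 8 genes left out. The 12 clusters were nearly specific to a genotype: 4 of them held 1.39 to 3.98% knockout cells and 7 held 86.7 to 99.8%, with mice weighted equally. What follows are means over mice with at least 10 cells in a cluster, given as a description. Among control clusters Fth1 ran from 2054 ± 110 CPM in the cluster led by Csmd3 and Bank1 to 4361 ± 239 CPM in the smallest cluster led by Crybb1, and Slc40a1 ran the other way, from 141 ± 6.52 to 106 ± 19.4 CPM. Ftl1 followed Fth1, from 1027 ± 28.7 to 2676 ± 154 CPM. Over these 4 clusters the median UMI count per cell went from 4980 to 2320 and the share of UMIs on ribosomal protein genes from 5.08 to 10.1%. The mitochondrial share of UMIs was 0.472 to 0.723% in them and 0.677 to 2.13% in the 7 knockout-rich clusters. The part of depth and RNA quality in the differences between clusters was not tested.

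Among knockout clusters Fth1 was highest in the cluster led by Cst7, Spp1 and Apoe, at 20013, 12513, 16823 and 16415 CPM in knockout mice 1 to 4 (410 cells). That cluster also had the highest ribosomal (21.3%) and mitochondrial (2.13%) shares of UMIs of the 12. The cluster of the highest Ms4a7 level came next at 19374, 8795, 12664 and 11463 CPM, and the cluster led by Cst7 and Cxcl13 had 11827 ± 5404 CPM. The largest knockout cluster, led by Ctnna3 and Tafa1, had 6177 ± 561 CPM. In these 4 clusters Slc40a1 was at 15.5 ± 15.7, 18.5 ± 9.56, 22.0 ± 8.28 and 24.6 ± 13.9 CPM with wide spreads. The clusters followed no single order by the 2 genes: the cluster led by Cxcl10 and Ifit3 had Fth1 at 7991 ± 2395 and Slc40a1 at 11.7 ± 7.61 CPM. The cluster led by Ctnna3 and Tafa1 also held 92 control cells of 4 mice. Their Fth1 was at 5026 ± 709 and their Slc40a1 at 69.7 ± 38.2 CPM. Mean Ftl1 there was 1773 CPM in control and 1950 in knockout, Cp 56.4 and 54.1, and Tfrc 13.5 and 9.05. Of the 8 genes only Slc40a1 was without overlap between the genotypes there, and the share over all genes was not tested. The Ms4a7 cluster existed in controls too, with 26 cells in 2 mice, and had Fth1 at 13123 ± 1846, Cp at 159 ± 21.6 and Slc40a1 at 26.9 ± 2.73 CPM. These control cells lay within the range of the knockout cells of the same cluster for Fth1 and just above it for Slc40a1 in 1 of the 2 mice.

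1 knockout cluster kept Slc40a1. In the cluster led by Arhgap15 and Negr1 (421 knockout cells, most from knockout mouse 2), Slc40a1 was at 98.8 ± 13.2 CPM in 3 knockout mice and 88.4 ± 41.1 CPM in 3 control mice, Fth1 at 4510 ± 895 and 4246 ± 639 CPM, and P2ry12, a marker of resting microglia, at 1519 ± 128 and 1830 ± 407 CPM. Of the knockout clusters this one had the highest mean Cp, at 154 ± 65.3 CPM, with 96.7 ± 44.3 CPM in control. Its leading genes also held Mrc1, a CAM marker. Knockout CAM-like cells had Slc40a1 at 120 ± 112 and Cp at 244 ± 160 CPM. The part of CAM-like cells in the values of this cluster was not tested. The few knockout cells in the control-rich cluster led by Csmd3 and Bank1 (44 cells, 2 mice) had Slc40a1 at 126 ± 33.0 CPM, which overlapped its controls. Their Fth1, at 2526 ± 11.7 CPM, was above every control mouse of that cluster (1903 to 2155 CPM). In the control-rich cluster led by Ecscr and Csmd3, 44 knockout cells of 2 mice had Slc40a1 at 62.0 ± 39.1 and Fth1 at 4288 ± 915 CPM. Its controls were at 126 ± 6.34 and 2929 ± 226 CPM. The other control-rich clusters had 1 knockout mouse each with enough cells. The cluster led by Ccl4 and Ccl3 was shared by both genotypes. Slc40a1 was there at 77.6 ± 10.9 CPM in control and 18.9 ± 21.4 CPM in knockout. Fth1 was at 4622 ± 411 and 7996 ± 2101 CPM, without overlap for either gene. Unlike in the class, mean Ftl1 (3544 and 2597 CPM), Hmox1 (85.6 and 61.2) and Slc11a2 (59.3 and 39.8) were lower in knockout. Mean Slc11a1 (157.5 and 206.9 CPM), Cp (24.9 and 36.6) and Tfrc (19.9 and 31.6) were higher. All of these other iron genes overlapped between the genotypes. How many of all genes were without overlap in this cluster was not tested.

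The cluster led by Xist and Fn1 was 97.6% cells of knockout mouse 1 and had 2 mice with enough cells, in which Slc40a1 was at 4.95 ± 6.996 CPM and Fth1 at 9895 ± 169 CPM.

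**Figure D4:**
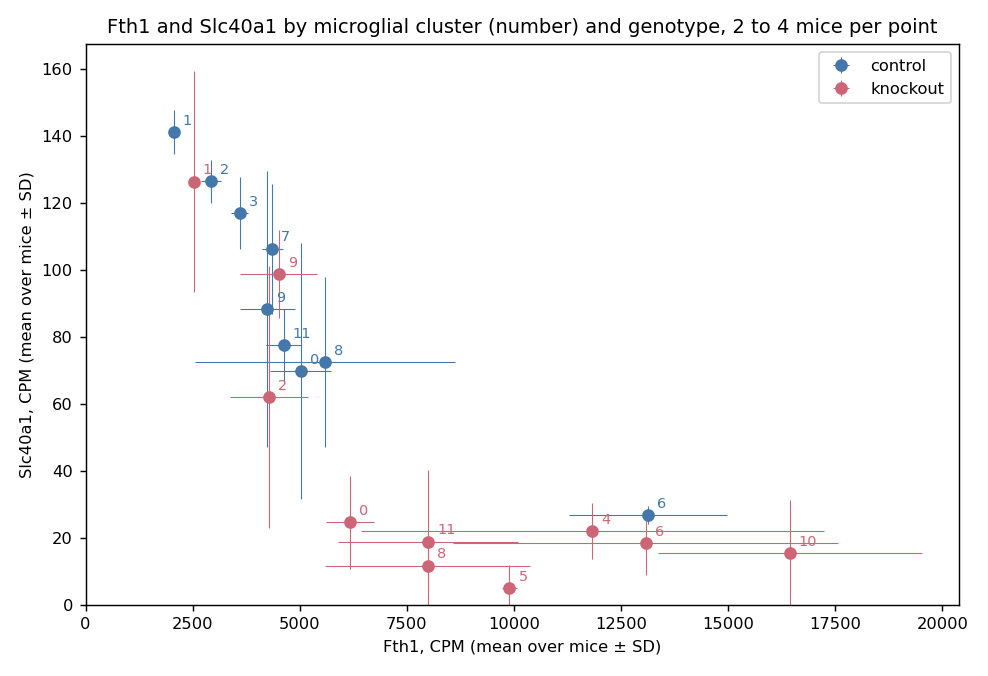
Mean Fth1 (x axis) against mean Slc40a1 (y axis), both CPM of the total with the SD over 2 to 4 mice, for each microglial cluster (number) and genotype. Control-rich clusters 1, 2, 3 and 7 lie at the upper left, most knockout points lie along the bottom, and the knockout points of cluster 9 (led by Arhgap15 and Negr1) and cluster 1 lie among the controls.

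Other genes of iron handling did not move as the 8 did. In 6 lists of other genes for iron sensing, iron transport, heme, iron-sulfur clusters and the NRF2 and BACH1 axis (68 genes), 53 could be tested in microglia-like cells and 26 were called, 11 higher and 15 lower, close to the 46.1% of all tested genes. With the total count in place of TMM scaling, the median of all genes moved to -0.11 and the split became 9 higher and 24 lower of 33 called. All genes tilted the same way at that scaling, with 2249 higher and 4266 lower of 6515 called among 12728 tested. Under TMM scaling the list medians lay between -0.20 and 0.01.

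Of 7 tested sensors and chaperones, 2 were higher and 3 lower. Ncoa4, which delivers ferritin to the lysosome for breakdown, fell from 58.0 ± 2.04 to 31.3 ± 4.18 CPM (log2 change -0.89, SE 0.09, adjusted p = 1.33e-05). Hfe, a partner of the transferrin receptor, fell from 72.8 ± 3.29 to 42.6 ± 5.15 CPM (log2 change -0.77, SE 0.08, adjusted p = 2.88e-05), and the iron chaperone Pcbp1 by 0.34 on the log2 scale. Its relative Pcbp2 rose by 0.30, and Fbxl5, which targets an iron regulatory protein for breakdown, by 0.16, a call lost under 8 of its 20 alternatives. The iron regulatory protein genes Aco1 (0.01) and Ireb2 (-0.09) were not called.

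Among 10 tested genes of other iron transport, 1 was higher and 4 lower. Slc25a37, the mitochondrial iron importer mitoferrin 1, fell from 39.1 ± 2.77 to 20.3 ± 2.19 CPM (log2 change -0.94, SE 0.09, adjusted p = 1.13e-05). The endosomal ferrireductase Steap3 (log2 change -1.10, from 1.70 ± 0.651 to 0.838 ± 0.289 CPM) and the metal importer Slc39a8 (-0.36) had lower calls that overlapped between genotypes and were lost under some alternatives. Mcoln1, a lysosomal channel that releases iron, rose by 0.44. Slc25a28, also lower, was at -0.25 and is named here after its value was seen. Of 7 tested genes for heme uptake, breakdown and export, the heme exporter Flvcr1 rose by 0.52, while Lrp1, a receptor for hemopexin-bound heme, fell from 317 ± 15.2 to 183 ± 18.9 CPM (log2 change -0.79, SE 0.08, adjusted p = 1.19e-05) and the constitutive heme oxygenase Hmox2 fell by 0.32, opposite to Hmox1.

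Heme synthesis and iron-sulfur assembly moved little. Alas1, the first enzyme of heme synthesis, rose by 0.35 and Ppox fell by 0.34, with the other 6 of 8 not called. Among 11 iron-sulfur genes tested, Hscb rose by 0.44 and Glrx5 by 0.22, the latter call lost under 6 alternatives, and the scaffold Iscu fell by 0.46, from 169 ± 4.47 to 122 ± 7.23 CPM.

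Genes of the NRF2 and BACH1 axis, the activator and the heme-sensing repressor that act on Hmox1 and the ferritins, were split. Nfe2l2, which encodes NRF2, rose from 230.0 ± 9.41 to 386 ± 28.6 CPM (log2 change 0.75, SE 0.06, adjusted p = 5.08e-06), and Bach1 fell from 116 ± 4.46 to 81.4 ± 10.0 CPM (log2 change -0.51, SE 0.08, adjusted p = 0.000399). Of the known NRF2 targets, Srxn1 rose by 1.34 and Slc7a11 by 1.03, at 2.51 ± 0.611 and 4.93 ± 1.34 CPM for Slc7a11, which overlapped between genotypes. Gclc fell by 0.74 and Gclm by 0.50, and Txnrd1 (0.16) was not called. Stress of cell isolation was followed by 11 immediate early and heat shock genes, which summed to 615 to 683 CPM in control and 509 to 852 CPM in knockout mice (7 higher and 2 lower), with a median log2 change of 1.13. Their part in the rise of Hmox1 was not tested.

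**Figure D5:**
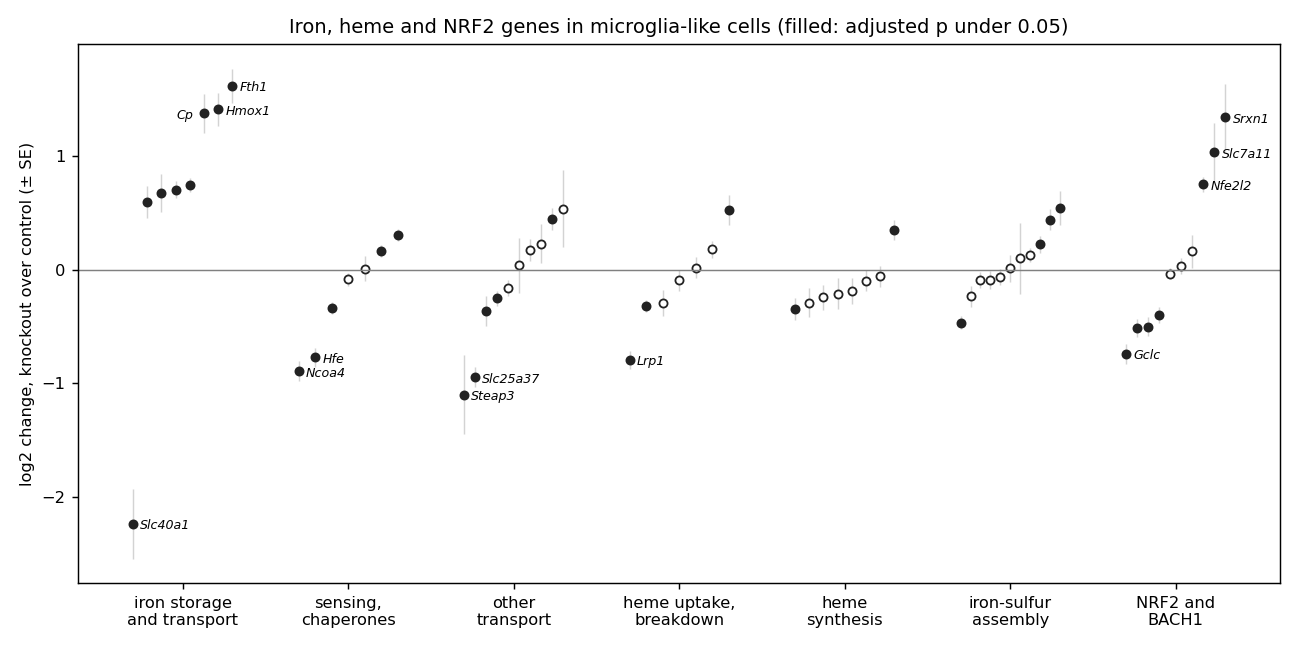
Log2 change, knockout over control, with its SE for each tested gene of the 8 iron genes and the 6 other lists in microglia-like cells, filled where the adjusted p was under 0.05. The 8 iron genes are all filled, 7 above 0, while each of the other lists spreads on both sides of 0.

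The genes whose class and genotype pattern was most like that of each iron gene were ranked by Pearson correlation of the mean log2(CPM + 10) over 8 points, the 4 classes in both genotypes, which share 1 pool and its free RNA. For Fth1 they were Cstb (0.98) and Sh3pxd2b (0.97), for Ftl1 Gabarap (0.99) and Fam174a (0.99), and for Hmox1 Ftl1 itself (0.97) and Fcer1g (0.97). Slc40a1 was most like Cyren and Gm10134 (0.98 each), and Cp like Samd4 (0.99) and Flot2 (0.98). Tfrc was nearest to Atp2b1 and Aldh7a1 (0.97 each), Slc11a1 to Ccnl1 (0.99) and Nfe2l2 (0.96), and Slc11a2 to Mib1 (0.98) and Man2b2 (0.97). With 8 points and so many genes these are descriptions without a test.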

How the data were processed

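CD45-positive brain cells of 8 mice were sequenced with the 10x 3′ assay as 1 pool of tagged cells. The authors deposited raw UMI counts per gene and cell, 1 table per mouse; Cell Ranger 7.1.0 stands in the file header and 6.1.2 in the submitters' processing notes, with build mm10. The deposited counts are before the removal of free RNA that the methods describe. Cells with under 200 genes or over 20% mitochondrial UMIs were removed, and the rest were clustered (Seurat 5.3.0, resolution 0.8). The 8 genes, the other iron, heme and NRF2 lists and Arpc4, 77 genes, were kept out of the clustering. A cluster took the name of a non-microglial marker list whose median log2 fold over the other cells was at least 1. Otherwise it was named microglia-like if at least 3 microglia markers, and no fewer than of any other list, were raised over T cell, B cell and granulocyte clusters. Where the median UMI count was under that of the sample divided by 3, a marker among the top 10 genes was also needed. No doublet caller was run. The tags can tell apart cells of different mice but not 2 cells of 1 mouse in a droplet, so such droplets may remain. Counts were summed per mouse and class (10 or more cells) and tested with edgeR 4.0.16 (quasi-likelihood, TMM, adjusted p under 0.05) in R 4.3.3; DESeq2 1.42.0 was an alternative. The test was first tested on simulated data. Alternatives were other scalings, no filter, a stricter cell filter, resolution 0.4, free RNA removed at 10 or 25%, cells with CAM markers or high UMI counts left out, the replicate block and each mouse left out. Replicate numbers paired no mice (correlations of same-numbered deviations from -0.07 to 0.00). Named genes were the 8, Arpc4, up to 3 called genes per direction and list, the highest gene of marker lists and the 2 most similar genes per iron gene. The members, lists and markers were chosen with earlier results of these data known. UMIs in single cells limit precision to counting error and mouse spread. The values of 1 gene of the other lists are not reported here.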

Additional observations from a re-analysis of the deposited data

Results flagged for a closer look

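6 results stood out by fixed rules. Fth1 in the T cell-like cells of knockout mouse 1 was at 6359 CPM, with the nearest other knockout mouse at 4737 CPM, a gap of 0.879 of the group's range above Dixon's 95% critical value for 4 samples. It was the 1 such value among 50 groups of 4 mice looked at, where chance gives about 1 in 20.

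The change between genotypes differed between cell classes, by a test of the difference itself in edgeR, for 5 results. In CAM-like minus microglia-like cells these were Slc40a1 (2.75 on the log2 scale), Fth1 (-1.47), Cp (-1.57) and Ftl1 (-0.77), and in T cell-like minus microglia-like cells Fth1 (-0.76). The call for Ftl1 was lost when control mouse 1, 2 or 4 or knockout mouse 2 was left out.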

How the results depend on the processing

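In microglia-like cells the 8 genes and Arpc4 kept direction and call under all 20 alternatives, where 5196 to 6515 of all genes were called. The count of iron genes called in CAM-like cells was 3 at clustering resolution 0.4, and in other classes 1 to 2 with 1 mouse left out (2 without control mouse 1). The number of genes with different shares of cells was 0 to 0, and the ratio of Fth1 to Ftl1 differed by 0.654 to 0.918 (log2), with 1 mouse left out, since no p under 0.0571 is then possible. In CAM-like cells the direction of uncalled genes turned: at resolution 0.4 Ftl1 was -0.60, Slc40a1 -1.33 and Hmox1 -0.20, Slc11a1 was -0.034 with no filter on low counts and -0.25 to 0.26 with 1 mouse left out, and Cp was 0.027 with DESeq2, 0.0059 with 10% of free RNA removed and -0.33 to 0.33 with 1 mouse left out. These cells number 22 to 45 per knockout mouse. With the replicate number as a block 8 iron genes, 25 genes of the other lists and 5518 of all genes were called; the numbers pair nothing (correlations of -0.0712, -0.0114, -0.0385 and -0.0043). Leaving out the Ms4a7 cluster, DESeq2 and left-out mice for monocyte-like and T cell-like cells, and left-out CAM-marker or high-UMI cells for the other lists were chosen after seeing the data. Of the values for other named genes, 28 lost their call and 449 did not. The cause of these changes was not tested.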

Other observations

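Among microglia-like cells thinned to 2000 UMIs, those with a Slc40a1 UMI had fewer Fth1 UMIs on average than those without one in all 8 mice. The means were 6.04 against 6.05, 5.77 against 6.28, 5.52 against 5.93 and 5.18 against 5.86 in control mice 1 to 4, and 20.2 against 24.3, 10.5 against 13.7, 14.6 against 15.9 and 13.7 against 16.0 in knockout mice 1 to 4. Cells of 1 mouse are not replicates, so this is a description without a test, and a cell with more Fth1 UMIs has fewer of the 2000 left for other genes.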
